A study of Mus musculus with 12 samples.

Results

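The genes described here are the 10 listed members of the gp130 cytokine axis in the mouse retina: the ligand genes Lif, Il6 and Clcf1, the receptor genes Il6st, Osmr, Lifr, Il6ra and Cntfr, the transcription factor gene Stat3 and the inhibitor gene Socs3. They were taken by symbol from both deposited expression tables, and 10 of 10 were found among the 25124 genes of each table. Retinas of wild-type mice were profiled by bulk poly(A) RNA-seq in 12 libraries, 2 in each of 6 groups. In the single-IOP series, intraocular pressure (IOP) of 1 eye was raised to 30 mmHg for 1 h in animals 3 or 18 months old (3mo IOP, 18mo IOP), and the untreated fellow eye was the control (3mo control, 18mo control). In the recurring series (4xIOP), mice first treated at an age of 3 months received 4 elevations at intervals of 2 weeks, with the contralateral untreated eye as 4xIOP control. Every retina was collected 2 days after the last elevation, so that all controls, those of the age comparison included, came from animals whose other eye had been treated. The labels do not say which 2 libraries come from the same animal, nor whether replicates are separate animals, so p-values measure only the spread between these libraries.

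Cytokines of the interleukin-6 family share gp130, the signalling receptor chain encoded by Il6st. Leukemia inhibitory factor (Lif) signals through gp130 paired with the LIF receptor (Lifr), oncostatin M through gp130 paired with the oncostatin M receptor (Osmr), interleukin-6 through gp130 and the ligand-binding chain Il6ra, and CLCF1 through gp130, Lifr and the CNTF receptor chain Cntfr. The paired chains activate JAK kinases and STAT3, and STAT3 induces Socs3, whose protein binds gp130 and shuts the signal down. In the injured retina Muller glia are a known source of LIF, and gp130 signalling is known for its part in glial activation and in photoreceptor survival.

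The start regions of Socs3, Osmr and Stat3 are shown because these members had the largest log2 differences between IOP and control retinas at 3 months and after 4 elevations. Each window, from RefSeq (GRCm38.p6, the patched release of mm10), runs from 250 bases before to 50 bases after the start of the transcript, in the direction of transcription. The capitals mark the STAT-type motif TTCNNNGAA, which reads the same on both strands.
Socs3, chr11:117969317-117969616, minus strand: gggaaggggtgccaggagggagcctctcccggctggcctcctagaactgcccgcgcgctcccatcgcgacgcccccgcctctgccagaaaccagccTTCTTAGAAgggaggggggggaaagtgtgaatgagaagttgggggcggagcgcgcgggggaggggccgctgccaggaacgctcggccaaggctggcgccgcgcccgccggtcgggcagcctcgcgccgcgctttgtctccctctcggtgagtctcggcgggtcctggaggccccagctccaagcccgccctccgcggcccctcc
Osmr, chr15:6874264-6874563, minus strand: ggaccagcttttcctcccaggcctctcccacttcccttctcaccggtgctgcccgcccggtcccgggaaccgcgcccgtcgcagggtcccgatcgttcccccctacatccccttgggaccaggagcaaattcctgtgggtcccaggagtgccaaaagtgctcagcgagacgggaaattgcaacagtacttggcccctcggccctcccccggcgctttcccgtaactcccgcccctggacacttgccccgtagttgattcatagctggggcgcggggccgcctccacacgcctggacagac
Stat3, chr11:100939491-100939790, minus strand: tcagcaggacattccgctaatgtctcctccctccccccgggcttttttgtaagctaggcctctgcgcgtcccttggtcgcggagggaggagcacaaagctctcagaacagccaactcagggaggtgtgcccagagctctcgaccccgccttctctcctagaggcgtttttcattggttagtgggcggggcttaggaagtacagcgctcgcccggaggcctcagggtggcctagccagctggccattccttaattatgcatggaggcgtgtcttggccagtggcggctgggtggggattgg
Windows were at hand for 9 of the 10 members, the exception being Clcf1. Socs3 alone among the 9 held a match, TTCTTAGAA, from position -154 to -146 relative to the start. Among 32851 windows of the same length, 8.3% held the motif. Windows of Il6st (33 CG dinucleotides), Socs3 (31), Il6ra (25) and Osmr (22) were rich in CG against a median of 7 over all windows, whereas that of Il6 had 3.

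Expression is given as deposited, in FPKM, which divides the reads of a gene by transcript length and by the mapped tags of the library. Library depth lay between 39766234 and 59455047 mapped tags, and 3 reads on a transcript of 2000 bases corresponded to between 0.0252 and 0.0377 FPKM. This limit covers counting error only. Retinal identity was clear from rod markers, which summed to between 4575 and 23460 FPKM in every library. The libraries also differed in other content. The ratio of median FPKM of short to long protein-coding transcripts came to 1.89 and 4.70 for 3mo control, 3.26 and 2.99 in 3mo IOP and between 1.20 and 1.36 in the 18mo libraries, so 3mo control replicate 2 stood apart. Summed ganglion cell markers were between 302 and 613 FPKM at 3mo and between 30.1 and 81.7 at 18mo. In bulk tissue, fewer cells of a type and less RNA per cell cannot be told apart. Levels are compared between genes only on this scale per length. The 2 tables were scaled separately, and for Lif, Clcf1, Lifr and Il6ra they list different transcripts, so tests were made within each table.

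**Figure D1:**
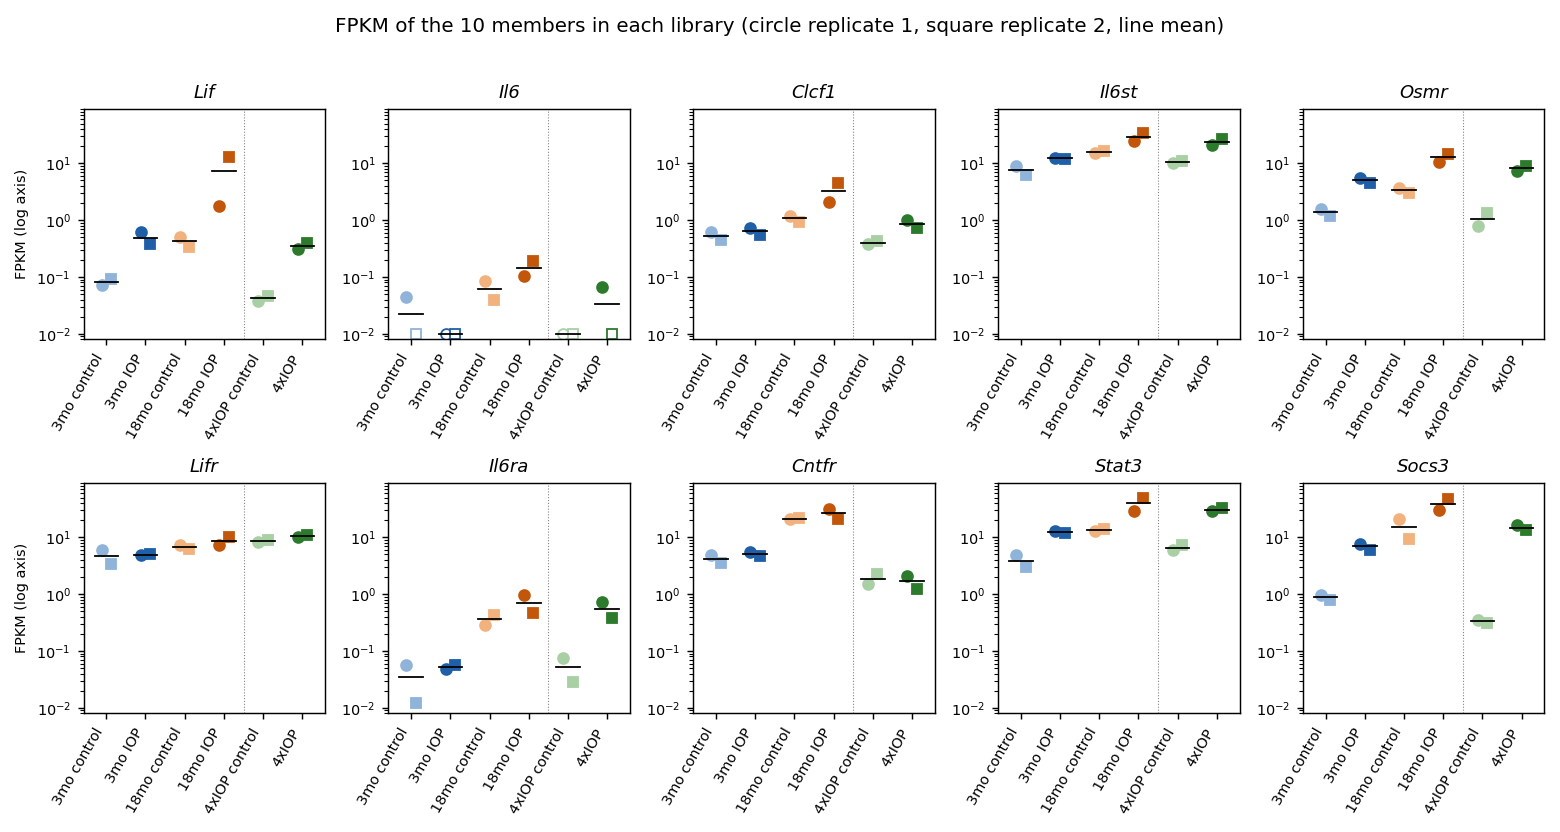
FPKM of each member on a log axis, 1 panel per gene, with circles for replicate 1, squares for replicate 2 and a line at the mean of the 2 libraries of each group. Open symbols and lines at 0.01 stand for values of 0, and the dotted line parts the separately scaled tables; Osmr, Stat3, Socs3 and Il6st lie higher in both IOP libraries than in both controls in all 3 pairs of groups, and Il6 stays at or below 0.188 FPKM.

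Differences were tested with limma on log2(FPKM + 0.5) over all genes averaging 0.5 FPKM or more in the table, 13731 in the single-IOP and 13718 in the recurring table. Calls needed a p of at most 0.05 after Benjamini-Hochberg adjustment together with a difference of at least 1 on this log2 scale. Log2 differences are smaller than those of the plain FPKM ratios in genes of low level, because of the added 0.5. Of the members, 8 of 10 passed the filter in the single-IOP table (not Il6 and Il6ra) and 7 of 10 in the recurring table (not Lif, Il6 and Il6ra). Lif passed with a mean of 2.08 FPKM over 8 libraries, which was 0.537 without the highest library, 18mo IOP replicate 2, and 0.332 over the 6 libraries outside 18mo IOP, so it passed only through that group and its tests against that group lend no support.

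At 3 months, 2 days after a single IOP elevation, Osmr and Socs3 rose and no member fell. Osmr rose 3.64-fold and Socs3 7.89-fold in FPKM. Stat3 was 3.13-fold higher but missed the adjusted threshold, and the values of Lifr, Clcf1 and Cntfr overlapped between IOP and control. The 2 called members of 8 tested stand beside 0.568% of all tested genes called higher in this comparison. Both IOP libraries lay above both controls for 5 of the 8 tested members (Lif, Il6st, Osmr, Stat3, Socs3), against 28.6% of all tested genes.

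Osmr (chromosome 15, 6813577 to 6874313, minus strand, mm10) had 1.57 and 1.18 FPKM in the 3mo control libraries and 5.46 and 4.56 FPKM in 3mo IOP. The means were 1.37 ± 0.270 and 5.01 ± 0.639 FPKM (SD, n = 2 each), a log2 difference of 1.56 (standard error 0.220, limma adjusted p = 0.0325). The lowest treated value was well above the highest control value. Socs3 (chromosome 11, 117966087 to 117969366, minus strand) measured 0.956 and 0.801 FPKM without and 7.77 and 6.09 FPKM with IOP elevation. Its log2 difference was 2.42 (standard error 0.359, limma adjusted p = 0.0325), and it ranked at position 31 of all tested genes by size of rise.

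Stat3 (chromosome 11, 100886806 to 100939540, minus strand) had 4.85 and 2.96 FPKM in 3mo control and 12.7 and 11.7 FPKM in 3mo IOP. The log2 difference of 1.56 (standard error 0.290) was as large as that of Osmr, with a limma adjusted p of 0.0703. Il6st (chromosome 13, 112464070 to 112506860, plus strand) had 8.80 and 6.23 FPKM in control and 12.5 and 11.99 in IOP, a log2 difference of 0.69 (limma adjusted p = 0.323). Lif (chromosome 11, 4266796 to 4272514, plus strand) had 0.0710 and 0.0920 FPKM in control, from 12 and 18 reads, against 0.607 and 0.375 FPKM in IOP, from 135 and 64 reads. The ratio of its means was 6.03, but the log2 difference was 0.76 with an interval from -0.79 to 2.31 (limma adjusted p = 0.940).

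Beside these values, summed microglia and macrophage markers were between 11.5 and 24.9 FPKM in 3mo control and between 34.1 and 58.7 in 3mo IOP, with 0 of 6 markers called by limma. Blood leukocyte markers summed to between 0.615 and 0.646 FPKM in control, with Cd3e and Ms4a1 at 0, and to between 0.888 and 2.24 in IOP. Smooth muscle and pericyte markers were between 10.1 and 11.2 FPKM in control and between 43.5 and 98.1 in IOP, with 2 of 5 called higher. The part of these cells in the Osmr and Socs3 values was not tested. Neither call held when 3mo control replicate 1, 3mo IOP replicate 1 or 3mo IOP replicate 2 was left out, with limma adjusted p reaching 0.301 for Osmr and 0.305 for Socs3. Without 3mo control replicate 2 the adjusted p was 0.0453 for Osmr and 0.0541 for Socs3, and Osmr also missed the threshold without either 18mo control, which enter the shared estimate of the spread. Neither gene was called with median-of-ratios size factors (adjusted p = 0.0641 for Osmr, 0.0701 for Socs3) or with the replicate block (0.111 for both).

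At 18 months, Osmr was the member that rose after IOP elevation, 3.83-fold. Lif, Clcf1, Il6st, Stat3 and Socs3 also had both IOP libraries above both controls but missed the adjusted threshold. Their values spread more within the group than at 3 months, with 18mo IOP replicate 2 higher than replicate 1 for 8 of the 10 members. The 1 called member of 8 tested stands beside 0.117% of all tested genes called higher, and the 6 of 8 without overlap, or 5 of 7 without Lif, stand beside 36.5%.

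Osmr had 3.64 and 3.04 FPKM in 18mo control and 10.8 and 14.9 FPKM in 18mo IOP. The log2 difference was 1.78 (standard error 0.220, limma adjusted p = 0.0443), and Osmr ranked at position 9 of 13731 genes by p. The call was lost without any one of 7 of the 8 libraries, the exception being 18mo IOP replicate 1 (adjusted p = 0.0143), and without 18mo IOP replicate 2 the log2 difference was 1.56 (adjusted p = 0.195). It was also lost with median-of-ratios size factors (adjusted p = 0.0901) and with the replicate block (0.174).

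Lif showed the widest spread of all members. It had 0.513 and 0.334 FPKM in 18mo control and 1.77 and 12.8 FPKM in 18mo IOP, from 397 and 3124 reads, so replicate 2 was 7.27 times replicate 1. Its log2 difference was 2.58 (standard error 0.673, limma adjusted p = 0.193), falling to 1.302 without replicate 2 and reaching 3.86 without replicate 1. Clcf1 (chromosome 19, 4214238 to 4223505, plus strand), which overlaps the protein-coding gene model AC109138.7 on the same strand and whose reads are therefore uncertain, had 1.20 and 0.932 FPKM in control and 2.08 and 4.42 in IOP. Its log2 difference was 1.19 (limma adjusted p = 0.196).

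Stat3 had 12.7 and 13.8 FPKM in 18mo control and 29.1 and 50.1 in 18mo IOP, a log2 difference of 1.49 (limma adjusted p = 0.115). Socs3 had 20.6 and 9.33 FPKM in control and 30.5 and 47.1 in IOP, a log2 difference of 1.42 (limma adjusted p = 0.181). The 18mo controls of Socs3 lay far apart from each other, with replicate 1 the higher, but both stayed below the IOP libraries. Il6st had 15.5 and 16.2 FPKM in control and 24.8 and 33.9 in IOP (log2 difference 0.85, limma adjusted p = 0.185).

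Other RNAs moved with the same libraries. Fos, an immediate early gene, had 207 and 104 FPKM in the 18mo controls, in the same order as Socs3, and 231 and 547 FPKM in 18mo IOP, in the same order as Lif, Stat3 and Socs3. In the 3mo libraries Fos lay between 2.66 and 6.66 FPKM. Summed leukocyte markers were between 0.189 and 0.402 FPKM in 18mo control, with S100a8 and Ms4a1 at 0, and between 2.11 and 4.08 in 18mo IOP. Microglia and macrophage markers were between 28.0 and 31.2 FPKM in control and between 39.4 and 76.3 in IOP, and rod markers between 15320 and 17150 and between 11620 and 13880. Red blood cell markers were between 166 and 426 FPKM in control and between 44.3 and 54.3 in IOP. None of these markers was called by limma. Their part in the levels of the members was not tested. Without 18mo IOP replicate 1 the log2 differences were 2.00 for Osmr, 1.88 for Stat3 and 1.655 for Clcf1. Without replicate 2 they were 1.555, 1.11 and 0.72. More members and more of all tested genes were called without replicate 1, and fewer of both without replicate 2.

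The question of whether the response to IOP differs with age was tested as an interaction. The 8 tested members gave 0 calls by limma, where 0% of all tested genes were called and 218 of 13731 had an unadjusted p under 0.05. The voom alternative in limma also called 0 members. Clcf1 had the 1 unadjusted p under 0.05 among the members (0.0493), with a rise larger at 18mo by 1.03 on the log2 scale (interval 0.00 to 2.05, limma adjusted p = 1.00). The point estimate for Lif was 1.82 (interval -0.37 to 4.01), and that for Socs3 was -1.01 (interval -2.18 to 0.16). Leaving out 1 library moved these estimates between 0.56 and 1.49 for Clcf1, 0.54 and 3.10 for Lif, and -1.56 and -0.46 for Socs3. For Osmr the difference between the responses was 0.22 (interval -0.50 to 0.94) and for Stat3 -0.07 (interval -1.01 to 0.87).

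**Figure D2:**
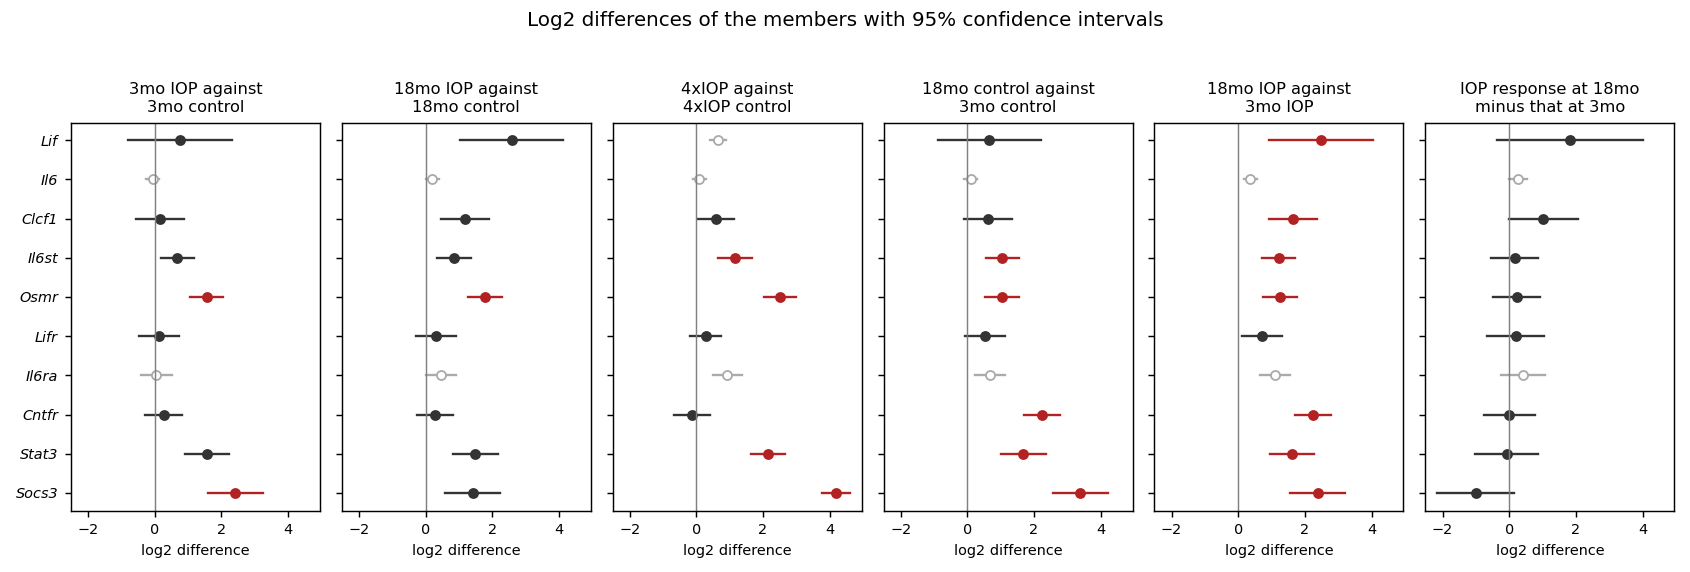
Log2 differences of log2(FPKM + 0.5) for each member (rows) in the 6 comparisons (panels), with 95% confidence intervals from limma as lines. Red marks called genes, black tested genes that were not called and open grey members below the filter, fitted without it; Osmr is red in every panel except that of the interaction, where no member is red.

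Age alone was compared in the untreated eyes. Il6st, Osmr, Cntfr, Stat3 and Socs3 rose from 3 to 18 months, and no member fell. Socs3 rose most, 17.0-fold, followed by Cntfr at 5.11-fold and Stat3 at 3.40-fold. The 5 called of 8 tested members stand beside 11.6% of all tested genes called higher. In all 8 tested members both 18mo controls lay above both 3mo controls, as did 45.7% of all tested genes. These groups differed in more than age. Fos had 3.07 and 2.66 FPKM in 3mo control and 207 and 104 in 18mo control. The ratio of short to long transcripts was 1.89 and 4.70 in 3mo control and 1.28 and 1.21 in 18mo control. The part of these differences in the rises of the members was not tested.

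Socs3 averaged 0.879 ± 0.110 FPKM at 3mo and 15.0 ± 7.98 at 18mo (SD, n = 2 each), a log2 difference of 3.39 (standard error 0.359, limma adjusted p = 0.00312). Cntfr (chromosome 4, 41657498 to 41697091, minus strand) had 4.84 and 3.49 FPKM at 3mo and 21.0 and 21.6 at 18mo, a log2 difference of 2.24 (standard error 0.237, limma adjusted p = 0.00312). Cntfr differed from the other called members in that IOP elevation left its values overlapping with control at both ages. Stat3 went from 3.90 ± 1.34 to 13.3 ± 0.755 FPKM, a log2 difference of 1.68 (limma adjusted p = 0.00624).

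The rises of Il6st and Osmr were the smaller ones. Il6st went from 7.52 ± 1.82 to 15.8 ± 0.513 FPKM (log2 difference 1.05, limma adjusted p = 0.00919) and Osmr from 1.37 ± 0.270 to 3.34 ± 0.426 FPKM (log2 difference 1.04, limma adjusted p = 0.00977). Both fell under a log2 difference of 1 once the trend with transcript length was removed from each library, to 0.61 and 0.64, and with median-of-ratios size factors, to 0.88 and 0.91. Cntfr, Stat3 and Socs3 kept log2 differences of 2.21, 1.31 and 3.18 with the length trend removed, and were called in both alternatives. Cntfr, Stat3 and Socs3 were also the 3 members called when 3mo control replicate 2 or either 18mo control was left out. Without 3mo control replicate 2 the log2 difference was 0.81 for Il6st and 0.89 for Osmr.

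Il6ra (chromosome 3, 89869324 to 89913196, minus strand) lay under the filter but had 0.0570 and 0.0120 FPKM in 3mo control, from 8 and 2 reads, and 0.292 and 0.426 FPKM in 18mo control, from 43 and 67 reads. It overlaps Gm42809 on the opposite strand, which the strand-specific counting separates. In IOP retinas Il6ra had 0.0490 and 0.0570 FPKM at 3mo, from 9 and 8 reads, and 0.953 and 0.465 at 18mo, from 176 and 93 reads. In the fit without the filter this was a log2 difference of 1.10 (limma adjusted p = 0.0172). Il6 (chromosome 5, 30013114 to 30019975, plus strand) had few reads in every group, with at most 12 reads in any of the 12 libraries. There were 6 and 12 reads in 18mo IOP and 0 reads in both 3mo IOP libraries.

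Marker genes of several cell types moved with age in the same libraries. Endothelial markers summed to between 1.60 and 2.36 FPKM in 3mo control and between 19.2 and 20.3 in 18mo control, with 4 of 4 called higher (3 of 3 without Tie1, which passed the filter only through the 18mo group), and 4 of 6 ganglion cell markers were called lower. Muller glia markers were between 428 and 528 FPKM at 3mo and between 887 and 1151 at 18mo, with 3 of 5 called higher, and pigment epithelium markers between 44.5 and 51.3 and between 1.26 and 2.40, with 3 of 3 tested called lower. Microglia and macrophage markers were between 11.5 and 24.9 FPKM at 3mo and between 28.0 and 31.2 at 18mo, with 3 of 6 called higher, and 2 of 5 smooth muscle markers were called higher. In the IOP retinas, 4 of 5 Muller glia, 4 of 4 endothelial (3 of 3 without Tie1, for the same reason) and 2 of 6 microglia markers were called higher at 18mo, and 6 of 6 ganglion cell and 3 of 3 tested pigment epithelium markers lower. Of the smooth muscle markers 2 of 5 were higher and 3 lower. Of all tested genes, 11.6% were called higher with age in control retinas and 10.2% in IOP retinas. In the fits without the variance trend, 1579 and 1586 of 13731 genes were called lower. The part of these cells in the age differences of the members was not tested.

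In the IOP retinas Il6st, Osmr, Cntfr, Clcf1, Stat3 and Socs3 were higher at 18mo, and Lifr was not called. Leaving aside Lif, which passed the filter only through 18mo IOP, these were 6 of 7 tested members, where 10.2% of all tested genes were called higher. All 7 lay without overlap above 3mo IOP, as did 43.2% of all tested genes. With the length trend removed, Il6st and Osmr fell under a log2 difference of 1, to 0.77 and 0.87, and were not called. Lif also passed the thresholds here, with 0.607 and 0.375 FPKM in 3mo IOP and 1.77 and 12.8 in 18mo IOP (log2 difference 2.48, limma adjusted p = 0.0222), as did Clcf1 (log2 difference 1.64, limma adjusted p = 0.00857). For Lif the log2 difference was 1.20 without 18mo IOP replicate 2 and 3.76 without replicate 1, and it was not called without the filter, with only the 2 groups compared or without either 3mo IOP library (adjusted p up to 0.106). Cntfr had a log2 difference of 2.25 in IOP retinas and 2.24 in control retinas. Socs3 differed by 2.38 (limma adjusted p = 0.00519), less than the 3.39 in control retinas, a difference that did not pass the interaction test. With 1 library left out, log2 differences ran over 1.96 to 2.53 (Cntfr), 2.07 to 2.69 (Socs3) and 1.22 to 1.99 (Stat3). For Clcf1, Osmr and Il6st they ran over 1.175 to 2.11, 1.035 to 1.48 and 0.99 to 1.43. Without either 3mo IOP library fewer members were called, as were fewer of all tested genes.

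The order of levels over the 4 groups of the single-IOP series differed between members. Il6st and Socs3 were lowest in 3mo control, then 3mo IOP, 18mo control and 18mo IOP, without overlap between neighbouring groups. Osmr followed another order, with 18mo control (3.04 to 3.64 FPKM) below 3mo IOP (4.56 to 5.46 FPKM). For Stat3 the middle groups could not be parted, with 11.7 to 12.7 FPKM in 3mo IOP and 12.7 to 13.8 in 18mo control. Lifr (chromosome 15, 7140542 to 7197489, plus strand) stayed between 3.45 and 9.995 FPKM in all 8 libraries and was called in none of the comparisons. Over these libraries, Pearson's r of log2(FPKM + 0.5) between pairs of the 8 tested members ran from 0.568 (Lif with Cntfr) to 0.986 (Il6st with Stat3), a description over libraries that share groups, depth and composition.

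After 4 elevations, Il6st, Osmr, Stat3 and Socs3 rose against the contralateral eye and no member fell. Socs3 rose 44.4-fold, Osmr 7.82-fold, Stat3 4.69-fold and Il6st 2.29-fold. Cntfr and Lifr were not called. Socs3 and Clcf1 averaged under 0.5 FPKM in the controls and reached the filter only through 4xIOP, the group where they are high, so that Socs3 had to differ among the filtered genes. Among the 5 members tested on their control level as well, 3 were called, beside 5.45% of all tested genes called higher, and 4 of these 5 (not Cntfr) lay without overlap above control, beside 27.7%.

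Socs3 had 0.351 and 0.313 FPKM in 4xIOP control, from 38 and 36 reads, and 16.2 and 13.2 FPKM in 4xIOP, from 2480 and 1520 reads. Its log2 difference was 4.19 (standard error 0.198, limma adjusted p = 6.693e-08), and in the fit without the filter, where this selection does not apply, the adjusted p was 0.00399. Osmr had 0.778 and 1.32 FPKM in control and 7.36 and 9.04 in 4xIOP, a log2 difference of 2.51 (standard error 0.222, limma adjusted p = 8.227e-06). Stat3 had 5.95 and 7.20 FPKM in control and 29.4 and 32.2 in 4xIOP, a log2 difference of 2.15 (limma adjusted p = 3.947e-05).

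Il6st had 10.2 and 10.8 FPKM in control and 21.4 and 26.7 in 4xIOP (log2 difference 1.15, limma adjusted p = 0.00731). Leaving out each library in turn kept the calls of Socs3, Osmr and Stat3, with log2 differences from 4.04 to 4.33, from 2.25 to 2.76 and from 2.02 to 2.28, whereas Il6st was not called without either control library or without 4xIOP replicate 2. Clcf1 had 0.383 and 0.424 FPKM in control and 0.998 and 0.734 in 4xIOP (log2 difference 0.59, limma adjusted p = 0.264). Lifr had 8.15 and 9.11 FPKM in control and 10.2 and 10.8 in 4xIOP (log2 difference 0.27, interval -0.19 to 0.73). Cntfr had 1.497 and 2.22 FPKM in control and 2.12 and 1.25 in 4xIOP, which overlapped.

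Of the members under the filter, Lif had 0.0380 and 0.0470 FPKM in control, from 6 and 8 reads, and 0.315 and 0.395 FPKM in 4xIOP, from 71 and 67 reads, which did not overlap. Il6ra had 10 and 4 reads in control and 138 and 55 in 4xIOP. Il6 had 0 reads in both controls and in 4xIOP replicate 2, and 4 reads in 4xIOP replicate 1. Blood leukocyte markers summed to between 0.150 and 0.272 FPKM in 4xIOP control, with Cd3e at 0, and to between 40.6 and 46.3 in 4xIOP. Its 4 tested markers passed the filter only through 4xIOP, and 3 of them were called without the filter. Microglia and macrophage markers were between 5.04 and 6.01 FPKM in control and between 65.3 and 67.3 in 4xIOP, with 5 of 6 called higher, or 4 of 5 without Aif1, which passed the filter only through 4xIOP. Lens markers summed to between 0.126 and 2.15 FPKM in control, with Crygd and Mip at 0, and to between 26.1 and 31.4 in 4xIOP, where 3 of the 4 passed the filter only through 4xIOP and 2 of the 4 were called without it. Muller glia markers were between 715 and 747 FPKM in control and between 363 and 452 in 4xIOP, with 0 of 5 called and a median log2 difference of 0.42 over the 5. Rod markers were between 9297 and 9707 FPKM in control and between 4575 and 6877 in 4xIOP, with 0 of 6 called. Pigment epithelium markers were between 6.69 and 11.96 FPKM and between 0.690 and 1.39, with 2 of 2 tested called lower. What these cells contributed to the levels of the members was not tested.

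Some members were also compared as ratios of FPKM within each library, which do not depend on the scaling of the library. For Osmr over Il6st, the 3mo controls gave 0.178 and 0.190 and the 3mo IOP libraries 0.437 and 0.380. The 18mo controls gave 0.235 and 0.188 and the 18mo IOP libraries 0.434 and 0.438. It was 0.0760 and 0.122 in 4xIOP control and 0.344 and 0.338 in 4xIOP. All 6 IOP libraries thus lay above all 6 controls. With 2 libraries against 2, an exact permutation test cannot go below a two-sided p of 0.333, so the ratios are given without a test.

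The ratio of Lifr to Il6st moved the other way after IOP. It went from 0.670 and 0.553 to 0.385 and 0.430 at 3 months, from 0.480 and 0.379 to 0.294 and 0.295 at 18 months, and from 0.797 and 0.843 to 0.479 and 0.404 after 4 elevations. In each of the 3 pairs of groups both IOP libraries were below both controls, and the same held for the ratio of Cntfr to Il6st. Lifr itself was not lower after IOP (log2 differences 0.13 at 3mo, 0.32 at 18mo and 0.27 for 4xIOP), whereas Il6st, the denominator, was higher. The ratio of Socs3, the inhibitor, to Stat3 started at 0.197 and 0.271 in 3mo control against 0.610 and 0.521 in 3mo IOP, and 0.0590 and 0.0435 in 4xIOP control against 0.552 and 0.411 in 4xIOP. At 18 months it was 1.62 and 0.676 in control and 1.05 and 0.940 in IOP, which overlapped.

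**Figure D3:**
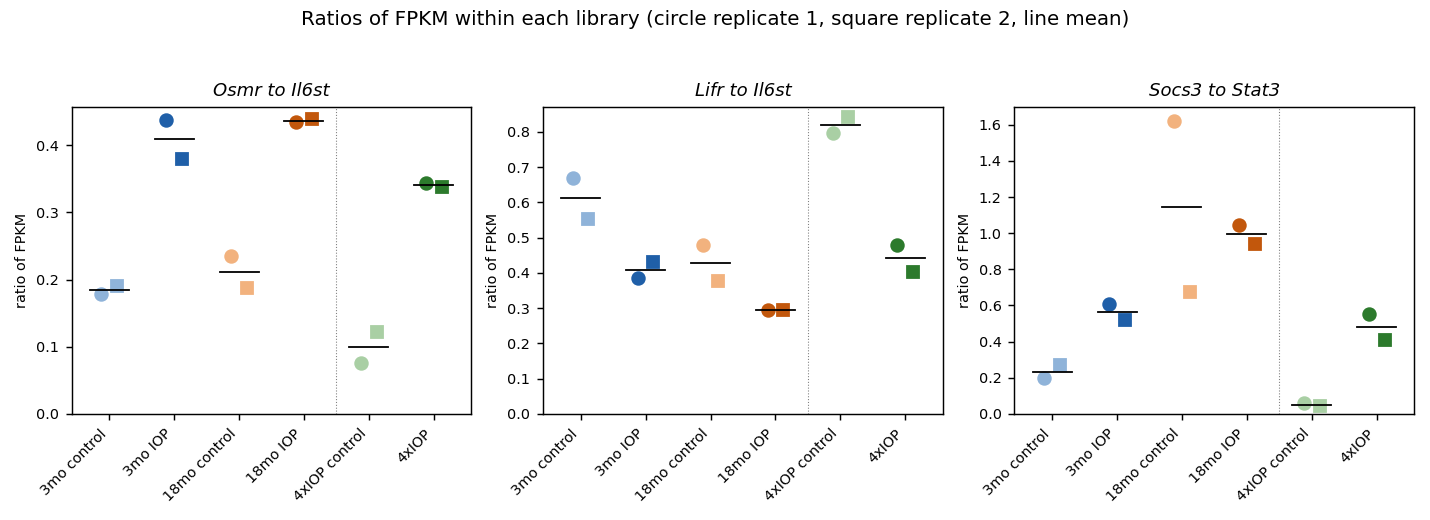
Ratios of FPKM within each library (vertical axes start at 0), with circles for replicate 1, squares for replicate 2 and lines at group means. The ratio of Osmr to Il6st lies between 0.338 and 0.438 in the IOP libraries and at or below 0.235 in controls, while that of Socs3 to Stat3 overlaps between 18mo control and 18mo IOP.

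The rest of the pathway was followed in 4 lists of 41 genes in all, of which 36 were tested in the single-IOP and 34 in the recurring table. In none of the comparisons was any of them called lower. Of the 9 other ligands and receptors, 4 were tested and 0 were called in the single-IOP comparisons. Among 9 kinases, STATs and adaptors, Tyk2, a JAK family kinase, rose with age in control retinas (log2 difference 1.06, limma adjusted p = 0.0119). This was 1 of 9, or 11.1%, beside 11.6% of all tested genes, and it was not called with size factors, with the length trend removed, with pseudocount 1 or without 3mo control replicate 2 or either 18mo control. None of the 9 rose after a single IOP elevation. The 7 further inhibitors gave 0 calls in the single-IOP table. By limma, the calls after IOP at either age were limited to the list of STAT3 target genes, which holds genes known to respond to STAT3 and also to other factors. The lists were chosen with earlier results of these data known. Their counts and medians therefore only describe the listed genes, and STAT3 activity was not tested.

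Of the 16 STAT3 target genes, 5 rose and 0 fell at 3 months, and the median log2 difference of the list was 2.31 beside 0.13 for all tested genes, of which 0.568% were called higher. Timp1, an inhibitor of matrix metalloproteinases, had 0.329 and 0.310 FPKM in 3mo control and 21.0 and 17.4 in 3mo IOP (log2 difference 4.58, limma adjusted p = 0.0185). Serpina3n, a secreted serine protease inhibitor, had 8.18 and 3.04 FPKM in control and 106 and 120 in IOP (log2 difference 4.35, limma adjusted p = 0.0319). Edn2, which encodes the vasoactive peptide endothelin-2, had 0.877 and 1.18 FPKM in control and 24.2 and 19.0 in IOP (log2 difference 3.85, limma adjusted p = 0.0185). For all 3 the values of IOP and control were far apart. None of the 16 was called without 3mo control replicate 1 or either 3mo IOP library, without the filter or with voom, whereas 2 (Timp1 and Edn2) were called with size factors, 10 with only the 2 groups compared and 9 without either 18mo IOP library.

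At 18 months 3 of the 16 rose after IOP and the median was 2.32 beside 0.09 for all tested genes, of which 0.117% were called higher. Timp1 had 0.727 and 0.778 FPKM in control and 10.9 and 39.6 in IOP (log2 difference 4.09, limma adjusted p = 0.0443). Gfap, the intermediate filament of reactive glia, had 4.87 and 4.39 FPKM in control and 31.4 and 87.5 in IOP (log2 difference 3.37, limma adjusted p = 0.0443). Edn2 had 10.1 and 11.7 FPKM in control and 59.8 and 163 in IOP (log2 difference 3.13, limma adjusted p = 0.0443). As with Lif and Stat3, replicate 2 was the higher IOP library for each. None of the 16 was called with pseudocount 0.1, without the filter, with size factors, with voom, in a fit of the 2 groups alone or under the replicate block, nor without any one of the 3mo libraries or of the 18mo controls. Timp1, Gfap and Edn2 were called without either 18mo IOP library, among 10 list genes without replicate 1 and 4 without replicate 2.

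With age in control retinas, 7 of the 16 rose and the median was 1.20 beside 0.16 for all tested genes, of which 11.6% were called higher. Without 18mo control replicate 1, 4 of the 16 were called. Junb, an AP-1 factor, had 4.20 and 3.73 FPKM at 3mo and 88.3 and 42.2 at 18mo (log2 difference 3.79, limma adjusted p = 0.00276). Edn2 differed by 2.90 (limma adjusted p = 0.00484). Cebpb, a transcription factor of the acute-phase response, had 0.986 and 0.719 FPKM at 3mo and 8.85 and 5.25 at 18mo (log2 difference 2.45, limma adjusted p = 0.00489). Timp1 and Gfap, which were called after IOP at both ages in the fits whose limits are given above, had log2 differences with age of 0.61 (limma adjusted p = 0.320) and 0.97 (0.0774), and Timp1 was called there once the length trend was removed.

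Between the IOP retinas of the 2 ages 8 of the 16 were higher at 18mo, with a median of 1.56 beside 0.09 for all tested genes, of which 10.2% were called higher, and without either 3mo IOP library 4 were called. Myc, among the 8, passed the filter only through 18mo IOP (0.319 FPKM outside it), and 7 of the 15 others were called. Pim1, a kinase gene, had the largest difference. Pim1 had 1.42 and 0.881 FPKM in 3mo IOP and 10.5 and 36.3 in 18mo IOP (log2 difference 3.63, limma adjusted p = 0.00371). Junb and Cebpb differed by 2.97 and 2.63 (limma adjusted p = 0.00302 and 0.00332). Gab1, an adaptor of receptor signalling, and Tyk2 were also higher at 18mo, with 2 of 9 genes of their list called, or 22.2%. With the length trend removed neither was called, and Tyk2 was not called with pseudocount 1, with size factors, without either 3mo IOP library or without 18mo IOP replicate 2.

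After 4 elevations 13 of the 15 tested target genes rose, with a median of 3.76 beside 0.10 for all tested genes, of which 5.45% were called higher. All 13 were also called without any one of the 4 libraries. Timp1, Edn2, Bcl3, Icam1 and Cebpb passed the filter only through 4xIOP, and 8 of the 10 other tested genes were called. In the fit without the filter 13 of 16 were called. Lcn2, which encodes the iron-carrier-binding protein lipocalin-2, had 1.43 and 0.951 FPKM in control and 284 and 825 in 4xIOP (log2 difference 8.18, limma adjusted p = 8.203e-08). Serpina3n had 0.593 and 1.34 FPKM in control and 118 and 289 in 4xIOP (log2 difference 7.03, limma adjusted p = 1.607e-07). Timp1 had 0.0570 and 0.215 FPKM in control and 25.5 and 63.0 in 4xIOP (log2 difference 6.01, limma adjusted p = 1.843e-07). The list of other ligands and receptors gave 1 call, Cntf, the ligand of Cntfr, with 1.59 and 2.73 FPKM in control and 8.93 and 11.5 in 4xIOP. The list of inhibitors also gave 1, Ptpn6, a phosphatase gene of blood cells, with 0.0910 and 0.236 FPKM in control and 4.05 and 3.07 in 4xIOP. Ptpn6 also passed the filter only through 4xIOP, and had an adjusted p of 0.00615 in the limma fit without it.

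**Figure D4:**
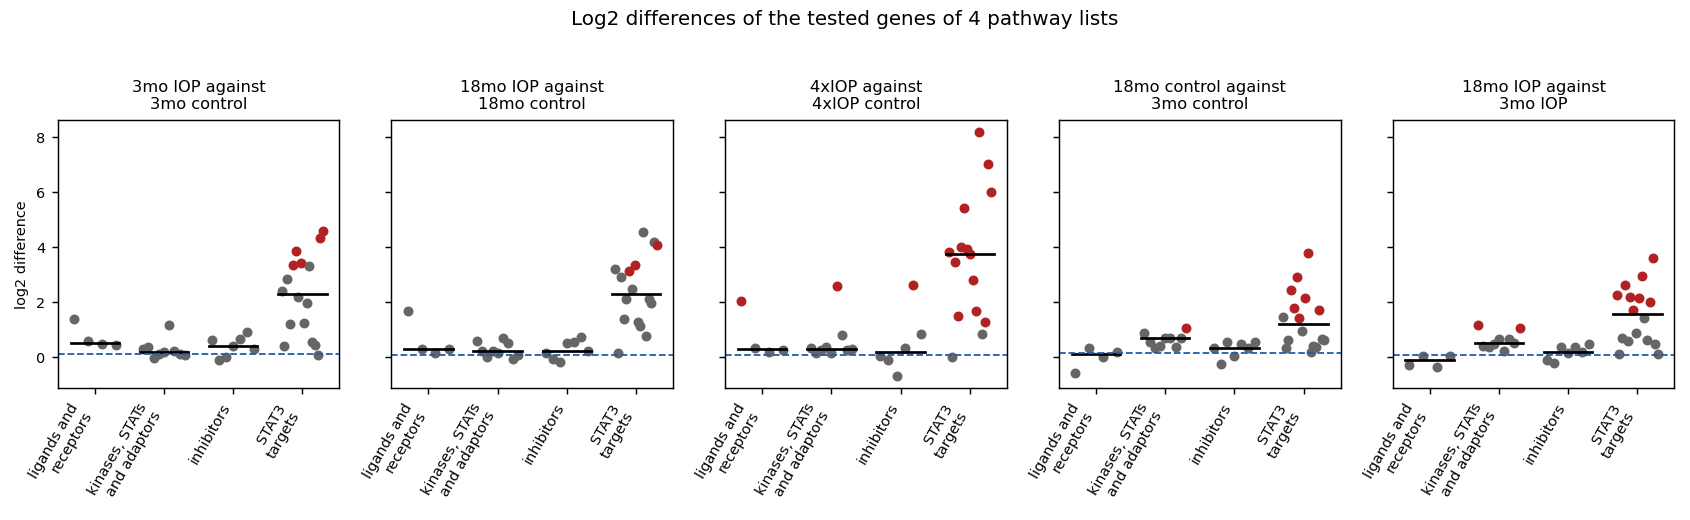
Log2 differences of the tested genes of the 4 pathway lists (dots, red where called) in 5 comparisons, with a black line at the median of each list and a dashed blue line at the median of all tested genes. Nearly all red dots are in the column of STAT3 target genes, whose median is 3.76 after 4 elevations. The lists were chosen with earlier results of these data known, so the columns are a description only.

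Genes whose profile over the 8 single-IOP libraries was most like that of the 3 leading members were ranked by Pearson's r of log2(FPKM + 0.5), as a description over libraries that share groups and composition. For Osmr these were Litaf (r = 0.991), C1ra (0.990), Steap3 (0.987), A2m (0.986) and Anxa6 (0.985). For Stat3 they were Olfm2 (0.995), Bag3 (0.991), Rfx2 (0.991) and Tapbp (0.990). For Socs3 they were Lix1l (0.991), Junb (0.987), Shc1 (0.986), Necap2 (0.986) and Ogfod2 (0.986).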

How the data were processed

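Whole retinas were homogenized in TRIzol, and strand-specific poly(A) libraries were sequenced. The authors aligned reads with STAR 2.7.8a, and counted exon reads on the transcribed strand with HOMER against mm10, keeping 1 isoform per gene. The deposited values are FPKM, in a table of 8 libraries and another of 4, with replicates not pooled. The tools in the submitters' notes also include DESeq2, used by the authors for their own tests.

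Groups followed the labels. The tests used limma 3.58.1 under R 4.3.3 (linear model, empirical Bayes, variance trend) on log2(FPKM + 0.5), with the 8 single-IOP libraries as 4 groups and the 4 recurring libraries alone. Genes averaging 0.5 FPKM or more were tested, and p-values were adjusted over all of them. Each member was matched by symbol. Library tags were recovered from the FPKM values, since FPKM times length steps by whole reads. All values checked, between 7529 and 11666 in a library, came within 0.02 reads of a whole number. Alternatives were other pseudocounts (0.1, 1), no filter, a stricter filter (2 FPKM), median-of-ratios size factors, removal of the length trend (splines with 5 degrees of freedom), voom on recovered reads, no variance trend, a replicate block, calls by adjusted p without the fold limit, a fit of only the 2 groups compared and each library left out, which assumes that a lone library varies like the other groups. A crossed block was added after the data were seen. The members and the gene lists were chosen with earlier results of these data known. Named were all members, at most 3 called list genes per comparison, and the 5 genes most like Osmr, Stat3 and Socs3, except for items that are not reported here. Single list genes named beyond that rule, such as Cntf, Ptpn6, Tyk2, Gab1, Myc, Bcl3 and Icam1, were chosen after their values were seen. Protein sequences were not used here.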

Additional observations from a re-analysis of the deposited data

How the results depend on the processing

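Among alternative values for single members, 791 kept direction and side of the threshold, 61 lost a call, 10 gained one and 20 changed sign. With FPKM as deposited the median of all genes was shifted by 0.13 (3mo IOP), 0.09 (18mo IOP), 0.16 (age, control), 0.09 (age, IOP) and 0.10 (4xIOP) on the log2 scale, and with size factors by between -0.04 and 0.01.

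Members called after IOP at 3mo numbered 2, but 1 with pseudocount 1 or only the 2 groups compared, and 0 without the filter, with median-of-ratios size factors, with voom or with the replicate block. After IOP at 18mo, 1 became 0 with pseudocount 0.1, without the filter, with size factors, with voom, with the block and with only the 2 groups. With age in controls, 5 became 3 with size factors and with the length trend removed, and 4 with pseudocount 1 and with voom. With age in IOP retinas, 7 became 5 with the length trend removed and 6 with the stricter filter and with only the 2 groups. The 7 and the 5 include Lif, which passed the filter only through 18mo IOP. The number of members called changed with the library left out, as did that of all tested genes. In these fits the log2 difference of Osmr ran from 1.41 to 1.705 at 3mo and from 1.555 to 2.00 at 18mo. With age it ran from 0.89 to 1.19 in controls and from 1.035 to 1.48 in IOP retinas. After 4 elevations it ran from 2.25 to 2.76. The causes were not tested.

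Same-numbered control and IOP libraries deviated in opposite directions (r = -0.275, -0.53 and -0.29), so these data gave no sign that the numbers pair them, which the labels leave unsaid. The replicate block otherwise gave 5, 7 (Lif among them), 0 and 4 calls for age in controls, age in IOP retinas, interaction and 4xIOP. A crossed block, chosen after seeing the data, gave 3 calls at 3mo, 5 at 18mo (Lif among them) and 4 after 4 elevations. Of all tested genes it called 298, 298 and 780 higher, against 78, 16 and 748 in the main fits.

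Signs turned for uncalled differences alone. For IOP at 3mo, Lifr was -0.050 with size factors and -0.052 with voom, and Clcf1 -0.10 with the length trend removed. For the interaction, pseudocount 0.1 gave Cntfr -0.013 and pseudocount 1 gave Stat3 0.0033. With single libraries left out, Lifr ranged from -0.22 to 0.47 (IOP at 3mo), and Cntfr from -0.010 to 0.56 (IOP at 18mo) and from -0.41 to 0.17 (4xIOP). For the interaction these ranges were -0.069 to 0.40 for Il6st, -0.16 to 0.54 for Lifr, -0.0033 to 0.45 for Osmr, -0.46 to 0.32 for Stat3 and -0.28 to 0.29 for Cntfr. Il6, with at most 12 reads in a library, had too few reads to compare groups.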
